A study of Mus musculus with 33 samples.

Results

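Of the 56414 rows of the expression table, 41 were followed here as the cell cycle and DNA replication genes. They were found in the table by gene symbol, from a list made with earlier results of these data known: 18 genes of S phase, when DNA is copied, and 23 genes of mitosis, when the copied chromosomes are separated. Each of the 41 had 1 row, and all 41 passed the filter on low values (a mean of at least 10 normalised reads) under both tissue labels. The 18 S phase genes were 10 genes of origin licensing and the replicative helicase (Mcm2 to Mcm7, Cdc6, Cdt1, Cdc45, Gins2), 5 genes of the replication fork, nucleotide supply and maintenance DNA methylation (Pcna, Rrm1, Rrm2, Tyms, Uhrf1) and 3 regulators of S phase entry (E2f1, E2f8, Ccne2). The 23 mitosis genes were 5 mitotic control genes (Foxm1, Cdk1, Ccna2, Ccnb1, Ccnb2), 6 genes of mitotic kinases, the spindle checkpoint and the chromosomal passenger complex (Plk1, Aurka, Aurkb, Bub1, Bub1b, Birc5), 8 spindle and kinetochore genes (Kif11, Kif20a, Kif23, Cenpe, Cenpf, Tpx2, Nusap1, Prc1), 2 genes of the anaphase-promoting complex pathway (Cdc20, Ube2c) and 2 genes of mitotic chromosomes (Mki67, Top2a).

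Polyadenylated RNA of whole lymphoid organs was sequenced from C57Bl/6 mice. Nicotinamide, the amide form of vitamin B3 (NAM below), was given at 0.5% in the drinking water (renewed weekly per the labels, but more often per the methods) over 1, 3 or 14 days, and untreated mice drank water without it. There were 5 libraries in each of the 4 groups labelled spleen (untreated, NAM 1 day, NAM 3 days, NAM 14 days), and 3, 2, 4 and 4 libraries in the same groups labelled lymph node. The labels give no allele or transgene for any group, neither age nor sex, and do not say whether 1 animal gave both organs or whether libraries of a group came from separate animals, so p-values measure only the spread between these libraries. The study's methods give female mice and an age range for its experiments as a whole, and the paper calls these mice tumor-free. The question addressed here is whether genes of DNA replication and genes of mitosis were at other levels after NAM in either set of libraries, and whether the S phase and mitosis genes moved together.

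A cell commits to division when cyclin-dependent kinases release E2F transcription factors from the retinoblastoma proteins, and E2F1 then drives genes of the licensing factors, the MCM helicase and nucleotide synthesis. E2F8 is a repressive member of the same family that limits this wave. Later, B-MYB and FOXM1 drive the mitotic genes together with the MuvB complex, which binds a promoter element called the cell cycle genes homology region (CHR). The anaphase-promoting complex ends mitosis by marking cyclins and securin for destruction. In mouse lymphoid organs the dividing cells include germinal centre B cells, plasmablasts, activated T cells and, in the spleen, erythroid and myeloid precursors.

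The 2 sets of genes also differed in their promoter letters, which the choice of members did not use. RefSeq windows on the GRCm38.p6 build, from 250 bases before to 50 after the annotated start, matched 33 of the 41 members: 15 S phase genes with 17 windows and 18 mitosis genes with 19. The motifs below were searched on both strands: an E2F site (TTTNNCGC, where each N is C or G), the CHR element (TTTGAA) and the CCAAT box (CCAAT), the last bound by NF-Y. An E2F site was present in 41.2% of the S phase windows and 5.26% of the mitosis windows, against 2.26% of all 32851 windows. A CHR element was present in 17.6% of the S phase windows and 73.7% of the mitosis windows, against 17.9% of all windows. A CCAAT box was present in 76.5% and 89.5%, against 37.4% of all windows. A match describes letters and is not a bound site. The windows of 2 helicase subunit genes (Mcm5 and Mcm6) and of 2 mitosis genes (Cdk1, the mitotic kinase, and Top2a, the topoisomerase that untangles sister chromatids) are shown 5′ to 3′ because they carry these motifs, with matches of any of the 3 motifs in capitals. Matches that overlap, such as the E2F sites on opposite strands of Mcm5, run together. Mcm5 lies at chr8:75109259-75109558 on the plus strand, and Mcm6 at chr1:128359656-128359955, Cdk1 at chr10:69352863-69353162 and Top2a at chr11:99024140-99024439 lie on the minus strand.
Mcm5: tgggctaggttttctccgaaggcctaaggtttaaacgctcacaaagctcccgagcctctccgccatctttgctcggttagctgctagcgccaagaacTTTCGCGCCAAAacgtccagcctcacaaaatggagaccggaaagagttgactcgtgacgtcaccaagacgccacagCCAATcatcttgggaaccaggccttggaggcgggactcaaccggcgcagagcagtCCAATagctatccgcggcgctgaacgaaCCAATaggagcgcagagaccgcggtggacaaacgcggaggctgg
Mcm6: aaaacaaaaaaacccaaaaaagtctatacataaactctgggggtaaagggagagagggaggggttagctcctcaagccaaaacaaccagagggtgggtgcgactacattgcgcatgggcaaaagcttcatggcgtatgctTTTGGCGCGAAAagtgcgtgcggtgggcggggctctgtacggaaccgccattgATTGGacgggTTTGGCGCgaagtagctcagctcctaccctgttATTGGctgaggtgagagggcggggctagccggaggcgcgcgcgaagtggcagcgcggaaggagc
Cdk1: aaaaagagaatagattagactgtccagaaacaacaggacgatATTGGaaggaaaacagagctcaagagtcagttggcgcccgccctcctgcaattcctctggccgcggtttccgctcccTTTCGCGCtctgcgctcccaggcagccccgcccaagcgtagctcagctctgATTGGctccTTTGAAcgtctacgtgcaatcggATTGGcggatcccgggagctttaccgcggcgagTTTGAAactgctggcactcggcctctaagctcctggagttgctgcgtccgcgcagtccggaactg
Top2a: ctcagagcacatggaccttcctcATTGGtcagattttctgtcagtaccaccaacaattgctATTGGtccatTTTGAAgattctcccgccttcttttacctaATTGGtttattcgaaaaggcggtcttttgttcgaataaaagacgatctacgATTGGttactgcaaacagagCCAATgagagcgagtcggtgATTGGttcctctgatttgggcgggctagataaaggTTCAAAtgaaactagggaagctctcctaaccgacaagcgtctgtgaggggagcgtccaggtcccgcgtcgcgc

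The tissue labels went against the defining genes of these organs in every library. Glycam1, a gene of lymph node high endothelial venules, stood at 108200 to 214200 normalised reads in the 20 libraries labelled spleen and at 1.585 to 12.38 in the 13 labelled lymph node, and Spic, a factor of splenic red pulp macrophages, stood at 774.3 to 1295 and at 6117 to 10490. The organs are therefore called only by their labels below. Depth ran from 18325061 to 54830743 reads in the libraries labelled spleen and from 30424968 to 46733974 in those labelled lymph node. The size factors of the labels did not share a scale (each library's size factor against the one recomputed from its own label was 0.9999 to 1.0001 for spleen and 1.0289 to 1.0394 for lymph node), so levels set across labels are approximate and changes were tested within a label.

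Before any treatment, the members stood higher in the libraries labelled lymph node than in those labelled spleen. The log2 difference of the untreated group means had a median of 0.84 over the S phase genes and 1.03 over the mitosis genes, against 0.16 over all 17147 genes compared. In 36 of the 41 the libraries of the labels did not overlap and the lymph node label was the higher, against 37.5% of all genes. Mki67, the gene of the Ki-67 proliferation marker that coats mitotic chromosomes, stood at 1125 ± 9.31 (SD, n = 3) against 530.2 ± 87.4 (SD, n = 5). Foxm1, the mitotic transcription factor, went the other way without overlap, at 72.4 ± 17.2 against 140.6 ± 13.8. Foxm1 shares exon positions with Gm44596 and Tex52, protein-coding genes on the same strand, so its values here and below may include their reads. Cdt1, a licensing factor, was also lower on average, by a log2 difference of −0.41, but its libraries overlapped, and E2f1 differed by only 0.13, also with overlap. In bulk RNA, fewer dividing cells and less RNA of these genes per cell cannot be told apart, here and in every comparison below.

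**Figure D1:**
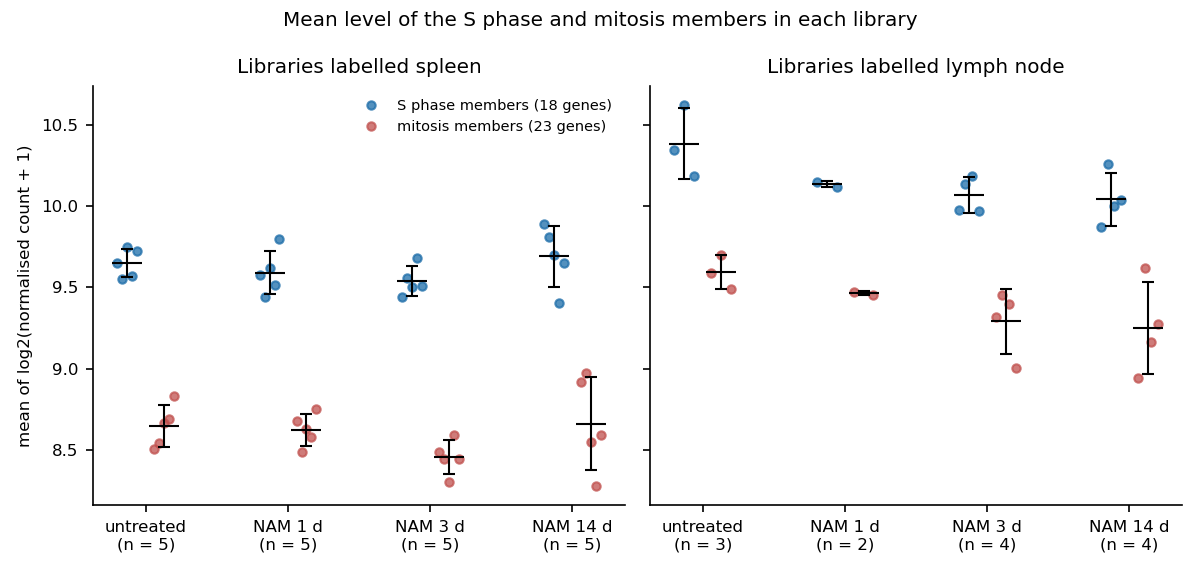
Mean log2(normalised reads + 1) over the 18 S phase genes and over the 23 mitosis genes (y axis) in each library (points), by days of NAM (x axis), with the group mean and SD; libraries labelled spleen and lymph node are in separate panels. Under the lymph node label the group means of both lists were lower after 3 and 14 days than in the untreated group, while under the spleen label the largest difference from untreated was −0.19, for the mitosis genes at 3 days.

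After 1 day of NAM, in the libraries labelled spleen, E2f1 fell and no other member passed the test. In the table's mm10 coordinates E2f1 lies at chr2:154559400-154569892. It stood at 261, 294, 317, 239.8 and 339 normalised reads in the untreated libraries and at 206, 188, 219.9, 167 and 230.1 after 1 day. The highest treated library lay below the lowest untreated one, so the groups did not overlap. The log2 fold change was −0.52 (SE 0.12; limma, Benjamini-Hochberg adjusted p = 0.00728 over all 18243 genes; lower in 5 of 5 libraries). This 1 call among 41 stood beside 16.6% of all genes called in either direction and 8.05% called lower, so the members held fewer calls than that share of 41 would give. Only 4 of the 41 had an unadjusted p under 0.05 (E2f1, E2f8, Aurka and Mcm2), against 30.9% of all genes, and 2 to 6 when 1 library was left out. The median log2 fold change was −0.04 over the S phase genes and 0.00 over the mitosis genes, with 22 of 41 members below a fold of 1, against 49.3% of all genes. E2f1 was the 1 member lower without overlap, against 5.47% of all genes.

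The rest of the cell cycle genes gave values on either side of 0 at this time. Ccnb1, the cyclin that activates Cdk1, had the highest log2 fold change of the members, 0.30 (adjusted p = 0.235), and Foxm1 stood at −0.24. Mki67 stood at 476, 487, 466, 547 and 676 reads untreated and at 649, 539, 500.2, 509.7 and 661 after 1 day, overlapping ranges with a log2 fold change of 0.11. Rrm2, the subunit of ribonucleotide reductase that cycles with S phase, gave 0.17, Pcna, the sliding clamp of the polymerases, 0.14, and Cdc6, which loads the helicase at origins, −0.07. Of pathway genes outside the members, 2 of 42 other S phase genes were called higher and 2 lower, 1 of 45 other mitosis genes higher and 3 lower, and 1 of 21 G1 regulators higher and 3 lower. The G1 kinase inhibitor Cdkn2c gave the highest log2 fold change among these calls, 0.84 (SE 0.26, adjusted p = 0.0329), and the spindle gene Ckap2l the lowest, −0.73 (SE 0.19, adjusted p = 0.0116). The called G1 genes that were lower were Ccnd1, Myc and E2f4.

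Some markers of other cell types were called in the same libraries. The share over all genes was 16.6% in either direction, 8.56% higher and 8.05% lower. Among 9 germinal centre B cell markers 2 were called higher and 1 lower (Mef2b, whose row also carries Borcs8 and cannot be read as Mef2b alone), 3 of 8 B cell markers and 1 of 9 T cell markers were lower, and 1 of 8 plasma cell markers was higher and 1 lower. Of the 9 adipocyte markers, none of them at 0 in a whole group, 1 was called higher at 1 day, and their summed level ran from 34660 to 187500 untreated and from 114400 to 490500 after 1 day. Of 8 neutrophil precursor markers tested 1 was higher, and the sum of all 10 ran from 142 to 798.1 untreated and from 450.4 to 4910 after 1 day, with a mean log2 level that differed by 1.37 and lay above all untreated libraries in 4 of 5. Of 8 erythroid markers tested 2 were lower, while the sum of all 15 erythroid markers was only 487.9 to 644.7 reads untreated and 567.5 to 812.5 after 1 day, with Kel at 0 in every untreated library. Of the 4 high endothelial venule markers 1 was called, Madcam1, an adhesion molecule of venules, which fell (log2 fold change −0.69, adjusted p = 0.0177) and of the 4 red pulp and mesenchyme markers tested 1 was called, Vcam1, an adhesion molecule of stroma and macrophages, which rose (0.64, adjusted p = 0.000872). The mean log2 level of the 6 red pulp and splenic mesenchyme markers differed by 0.24. The part of all these markers in the E2f1 result was not tested.

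After 3 days under the spleen label, E2f1 was again the member called, with 213, 181, 187, 241 and 208 reads. Library 4 of this group, at 241, reached just above the lowest untreated library, and the other 4 lay below all untreated ones. The log2 fold change was −0.49 (SE 0.12; limma adjusted p = 0.0261), and 5.55% of all genes were called in either direction, 2.74% lower. This call was lost when the fit held only the untreated and 3 day libraries and in 6 of the 10 fits that left out 1 library (any of untreated libraries 2, 3 and 5 or of 3 day libraries 2, 3 and 5). Foxm1 stood at 147, 119, 156, 139 and 142 reads untreated and at 129, 94.1, 68.9, 96.1 and 97.0 after 3 days, with 4 of 5 libraries below all untreated ones. Its log2 fold change of −0.55 (SE 0.17) missed the threshold, with an adjusted p of 0.0578. The Foxm1 row may also carry reads of Gm44596 and Tex52. Without 3 day library 1, which lay with the untreated libraries on the second principal component (13.58% of the variance), both E2f1 and Foxm1 were called.

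Apart from E2f1, no member passed the test at 3 days, though most had lower values, and other fits called more: 10 members lower and 1 higher with library weights, and 3 with DESeq2. A fold below 1 was found for 36 of 41 members, 14 of the 18 S phase genes and 22 of the 23 mitosis genes, against 49.9% of all genes tested. The median log2 fold change was −0.11 over the S phase genes and −0.16 over the mitosis genes, and 17 of 41 members lay below the lower quartile of all genes, which was −0.17. An unadjusted p under 0.05 was found for 7 of the 41, against 22.0% of all genes, a count that ran from 3 to 12 when 1 library was left out (3 without untreated library 5 or 3 day library 3, 12 without 3 day library 1 or 4). Groups did not overlap for Cdc45 and Mcm2, of the replicative helicase, and Kif20a, a kinesin of cytokinesis, all lower after NAM, 3 of 41 against 2.60% of all genes. Kif20a shares exon positions with Cdc23 and Cdc45 with Ufd1, and whether reads were counted by strand is not given in the sources used here. Of the other lists, 1 of 42 S phase genes was called higher (Rfc4, a clamp loader subunit, log2 fold change 0.59, adjusted p = 0.0234) and 1 lower, 1 of 45 mitosis genes lower (Ckap2l, −0.68, adjusted p = 0.0387) and 3 of 21 G1 genes lower (again Ccnd1, Myc and E2f4). Of the cell type markers, 1 germinal centre B cell marker was called higher and 1 plasma cell marker lower, and no B cell, T cell, erythroid, neutrophil precursor or adipocyte marker was called. The neutrophil precursor markers differed by 0.57 in mean log2 level, above all untreated libraries in 3 of 5. Madcam1 fell by 0.89 on the log2 scale (adjusted p = 0.0133) and Vcam1 rose by 0.37 (adjusted p = 0.0460), and the red pulp and mesenchyme markers differed by 0.30 in mean log2 level. Their part in the members' values was not tested.

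After 14 days, no member under the spleen label passed the test, and neither did any other gene (0.00% called by limma). An unadjusted p under 0.05 was found for 0 of 41 members and for 2.80% of all genes, and the fold was below 1 for 14 of 41 members and 48.8% of all genes. The count of 14 was 25 without 14 day library 1 or 2 and 3 without 14 day library 4, and the median over the members, 0.03, was −0.01 without library 1 or 2 and 0.11 without library 4. The highest member was E2f8, with a log2 fold change of 0.29 (adjusted p = 1), and the lowest was Cenpe, a kinetochore motor, at −0.42. E2f1 stood at 262, 362, 271, 266 and 272 reads, within the untreated range except for the second library, which lay above it.

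Set against day 1, E2f8, E2f1 and Aurka were higher at 14 days under the spleen label, 3 of 41 members against 10.6% of all genes called in either direction and 5.22% called higher. E2f8 stood at 263, 206, 219, 196 and 298 reads after 1 day and at 361, 487, 359, 306 and 324 after 14 days. The groups did not overlap, and the log2 fold change was 0.63 (SE 0.15; adjusted p = 0.0126). E2f1 rose by 0.50 on the log2 scale (adjusted p = 0.0131), also without overlap, and these 2 of 41 stood beside 4.42% of all genes higher without overlap. Aurka, the kinase of the spindle poles, stood at 209, 201.3, 215, 194 and 188 reads after 1 day and at 336, 285, 256, 208 and 261 after 14 days. Of its later libraries, 4 of 5 lay above all earlier ones, with a log2 fold change of 0.40 (adjusted p = 0.0397), a call that only 5 of 19 alternative settings kept. Ccnb1 leaned the other way, at −0.53, with an adjusted p of 0.0533. The 1 day group enters this comparison and the one of 1 day against untreated, so the rise from day 1 and the lower value on day 1 are not separate evidence for E2f1. Of the other lists, 1 of 42 S phase genes was called higher (Pold2, 0.32) and 1 lower (Rfc4, −0.64), 3 of 45 mitosis genes higher (Ckap2l at 0.73, Cdca3 and Incenp) and 2 of 21 G1 genes higher (Ccnd1 and E2f4). Cell type markers were called in the same comparison, beside 5.22% of all genes called higher and 5.41% lower. B cell markers were higher in 2 of 8 (Pax5 at 0.43 and Blnk at 0.30), and T cell markers in 1 of 9 (Tcf7, 0.51). Plasma cell markers were higher in 1 of 8 (Irf4, 0.36), and erythroid markers lower in 1 of 8 tested (Tfrc, −0.51). Of 9 germinal centre B cell markers 1 was higher (Mef2b, the row shared with Borcs8, 0.38) and 1 lower (Fas, −0.28), and no neutrophil precursor or adipocyte marker was called. Vcam1 fell by 0.73 (adjusted p = 0.000929) and Slc40a1, the iron exporter of red pulp macrophages, by 0.57 (adjusted p = 0.0297). The part of these cells and structures in the members' values was not tested.

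**Figure D2:**
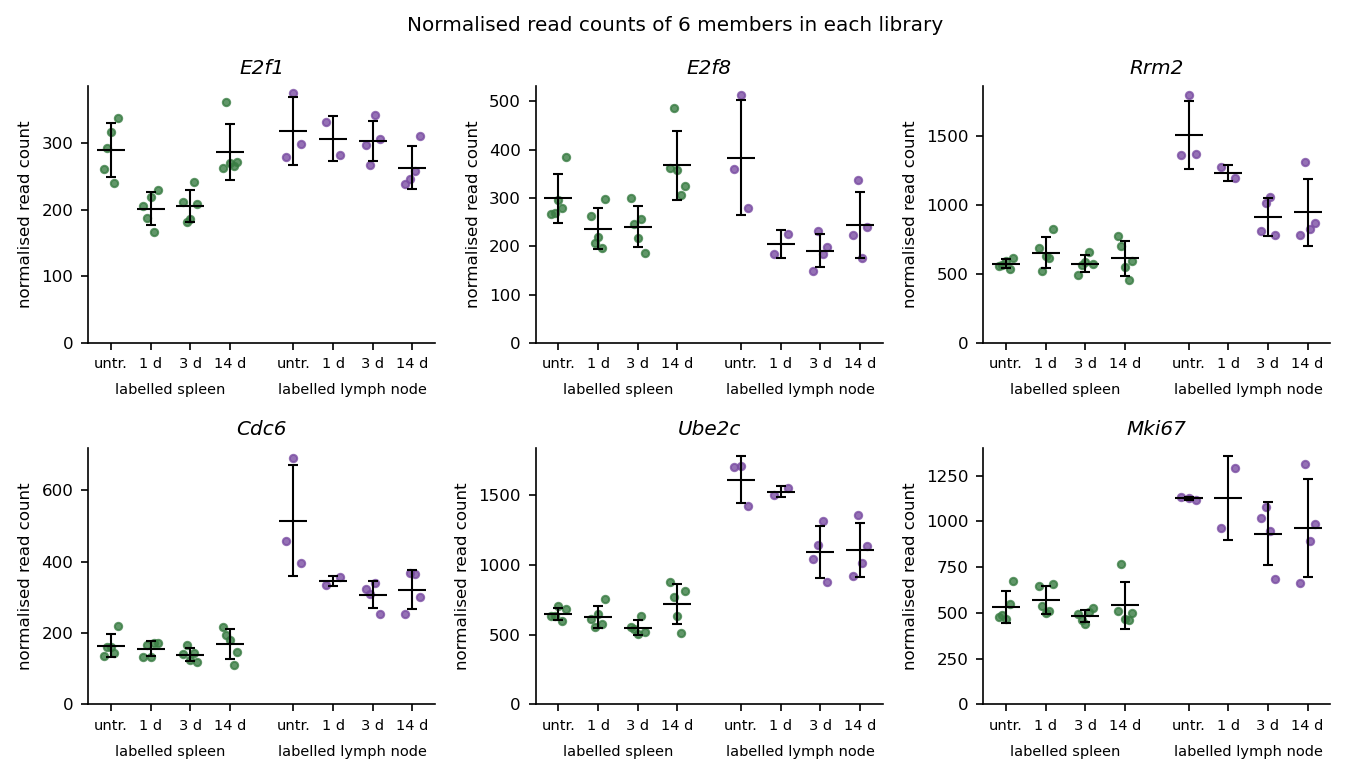
Normalised read counts (y axis, from 0) of 6 members in each library (points) by label and days of NAM (x axis), with the group mean and SD as bars. The 1 day and untreated libraries labelled spleen do not overlap for E2f1, and the 3 day and untreated libraries labelled lymph node do not overlap for E2f8, Rrm2, Cdc6 and Ube2c.

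Under the lymph node label, no member passed the test after 1 day, where 1.21% of all genes were called and the NAM group held 2 libraries. An unadjusted p under 0.05 was found for 6 of the 18 S phase genes (Mcm2, Mcm3, Mcm4, Mcm7, Cdc6 and E2f8) and 0 of the 23 mitosis genes, against 2726 of the 18215 genes tested. That count of 6 was 1 without untreated library 2 or 1 day library 2, and 10 without untreated library 3. The median log2 fold change was −0.22 over the S phase genes and −0.10 over the mitosis genes (−0.13 and −0.03 without untreated library 2), and 36 of 41 members had a fold below 1, against 50.1% of all genes. E2f8 came nearest to the threshold, with 359, 514 and 278 reads untreated and 184 and 225 after 1 day. Its groups did not overlap, and its log2 fold change was −0.87 (SE 0.26; adjusted p = 0.116). In all, 13 members were lower without overlap, 9 of S phase and 4 of mitosis, against 15.5% of all genes, and the row shared by Plk1 and Dctn5 was higher without overlap, against 17.1% of all genes. The difference between the S phase and mitosis lists was not given a test, since the members were chosen with results known.

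After 3 days under the lymph node label, 4 members fell: E2f8 (chr7:48866430-48881596 in mm10), Rrm2 (chr12:24708254-24714145), Cdc6 (chr11:98907808-98923942) and Ube2c (chr2:164769896-164778820). E2f8 stood at 149, 233, 185 and 198 reads, against 278 to 514 untreated. Rrm2 stood at 1366, 1799 and 1372 reads untreated and at 812, 1014, 1057 and 785 after 3 days. Cdc6 stood at 459, 691 and 396 reads untreated and at 325, 309.6, 340.4 and 255 after 3 days. In each of these 3 S phase genes all 4 NAM libraries lay below all 3 untreated ones, and untreated library 2 was the highest. Ube2c, the ubiquitin-conjugating enzyme of the anaphase-promoting complex, stood at 1704, 1711 and 1420 reads untreated and at 1044, 1142, 1316 and 875 after 3 days. These groups did not overlap either.

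The log2 fold changes at 3 days were −0.97 for E2f8 (SE 0.22; limma adjusted p = 0.0358), −0.72 for Rrm2 (SE 0.16; adjusted p = 0.0298), −0.71 for Cdc6 (SE 0.17; adjusted p = 0.04998) and −0.57 for Ube2c (SE 0.13; adjusted p = 0.0458). These 4 calls among 41 stood beside 1.24% of all genes called in either direction and 0.906% called lower. The number of calls rests on single libraries: it was 0 without untreated library 1, untreated library 2 or 3 day library 1, 1 without 3 day library 4, and 2 without untreated library 3, 3 day library 2 or 3 day library 3. Ube2c shares exon positions with Tnnc2, a muscle troponin gene, and E2f8 with Gm2788 (a processed transcript), both on the opposite strand. No annotated gene shares exons with Rrm2 or Cdc6.

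Most other members had lower values at 3 days that did not pass the test singly. The fold was below 1 for 39 of the 41, the exceptions being Pcna at 0.02 and the row shared by Plk1 and Dctn5 at 0.07 on the log2 scale. An unadjusted p under 0.05 was found for 18 members, 9 of S phase and 9 of mitosis, against 14.8% of all genes, and this count was 6 without untreated library 2. Of the 41 members, 33 lay below the lower quartile of all genes, which was −0.14. The median was −0.24 over the S phase genes and −0.29 over the mitosis genes, against 0.00 over all genes. The S phase median was −0.15 without untreated library 2, and the mitosis median −0.19 without 3 day library 4. By role, the median ran from −0.20 for the mitotic chromosome genes to −0.40 for the anaphase-promoting complex pair. In all, 15 members were lower without overlap, against 7.25% of all genes. Mki67 was one of these, at 1133, 1128 and 1115 reads untreated and 1016, 1077, 947 and 688 after 3 days.

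After 14 days under the lymph node label, Rrm2 was the member called, and nearly all members had lower values. Rrm2 stood at 787, 1311, 826 and 872 reads, all below the lowest untreated library at 1366, with library 2 far above its group. The log2 fold change was −0.69 (SE 0.16; limma adjusted p = 0.0486), where 0.791% of all genes were called in either direction and 0.681% lower. Leaving out 1 library at a time gave 0 calls in 5 of 7 fits, 1 call (Mcm7) without untreated library 3, and 5 calls (Aurkb, Ccna2, Rrm2, Ube2c and Uhrf1) without 14 day library 2. The members next to the threshold were Ube2c, with 917, 1360, 1016 and 1134 reads and a log2 fold change of −0.55, and the helicase subunit Mcm7 at −0.31, both with an adjusted p of 0.0638. Mcm7 shares exon positions with Ap4m1 and Cops6 on the opposite strand. The adjusted p of Cdc6, at −0.65, was 0.0891.

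The fold was below 1 for 40 of 41 members at 14 days, against 49.4% of all genes, the exception being the row shared by Plk1 and Dctn5 at 0.05 on the log2 scale. This count was 39 or 40 in each of the 7 fits that left out 1 library. An unadjusted p under 0.05 was found for 27 members, 14 of 18 in S phase and 13 of 23 in mitosis, against 11.8% of all genes. Unlike the count of folds below 1, this count rested on single libraries: it was 8 without untreated library 2, 14 without 14 day library 1 and 34 without 14 day library 2. The median log2 fold change was −0.29 over the S phase genes (−0.19 without untreated library 2) and −0.36 over the mitosis genes, against 0.00 over all genes, and 38 of 41 members lay below the lower quartile of all genes, which was −0.12. The members share libraries, so these counts describe the list and are not 41 separate measurements.

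By role, the 10 licensing and helicase genes had a median of −0.29 at 14 days, and 9 of the 10 had an unadjusted p under 0.05. Mcm5 stood at 4515, 5263 and 4011 reads untreated and at 3544, 4449, 3575 and 3602 after 14 days, with a log2 fold change of −0.28. Mcm6 gave −0.19, with all 4 NAM libraries below the untreated ones. The 5 fork and nucleotide genes had a median of −0.26, from −0.69 for Rrm2 to −0.04 for Pcna, whose sign turned when untreated library 2 or 14 day library 1 was left out. The 3 regulators of S phase entry had a median of −0.54, with E2f1 at −0.27 (280, 376 and 299 reads untreated against 239, 246, 258 and 311).

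Among the mitosis genes at 14 days, the 5 control genes had a median of −0.40 and none passed the test. Cdk1 stood at 1314, 1463 and 1128 reads untreated and at 766, 1190, 993 and 1019 after 14 days, groups that overlapped through library 2, with a log2 fold change of −0.40. Ccnb1 gave −0.36 and Foxm1 −0.35. The 6 kinase, checkpoint and passenger genes had a median of −0.40, the 8 spindle and kinetochore genes −0.31, and the anaphase-promoting complex pair −0.43. Mki67 gave −0.26 and Top2a −0.29, the lists' mitotic chromosome genes. In all, 8 members were lower without overlap at 14 days (Mcm6, Mcm7, Cdc6, Gins2, Rrm2, Birc5, Nusap1 and Ube2c), against 6.02% of all genes.

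**Figure D3:**
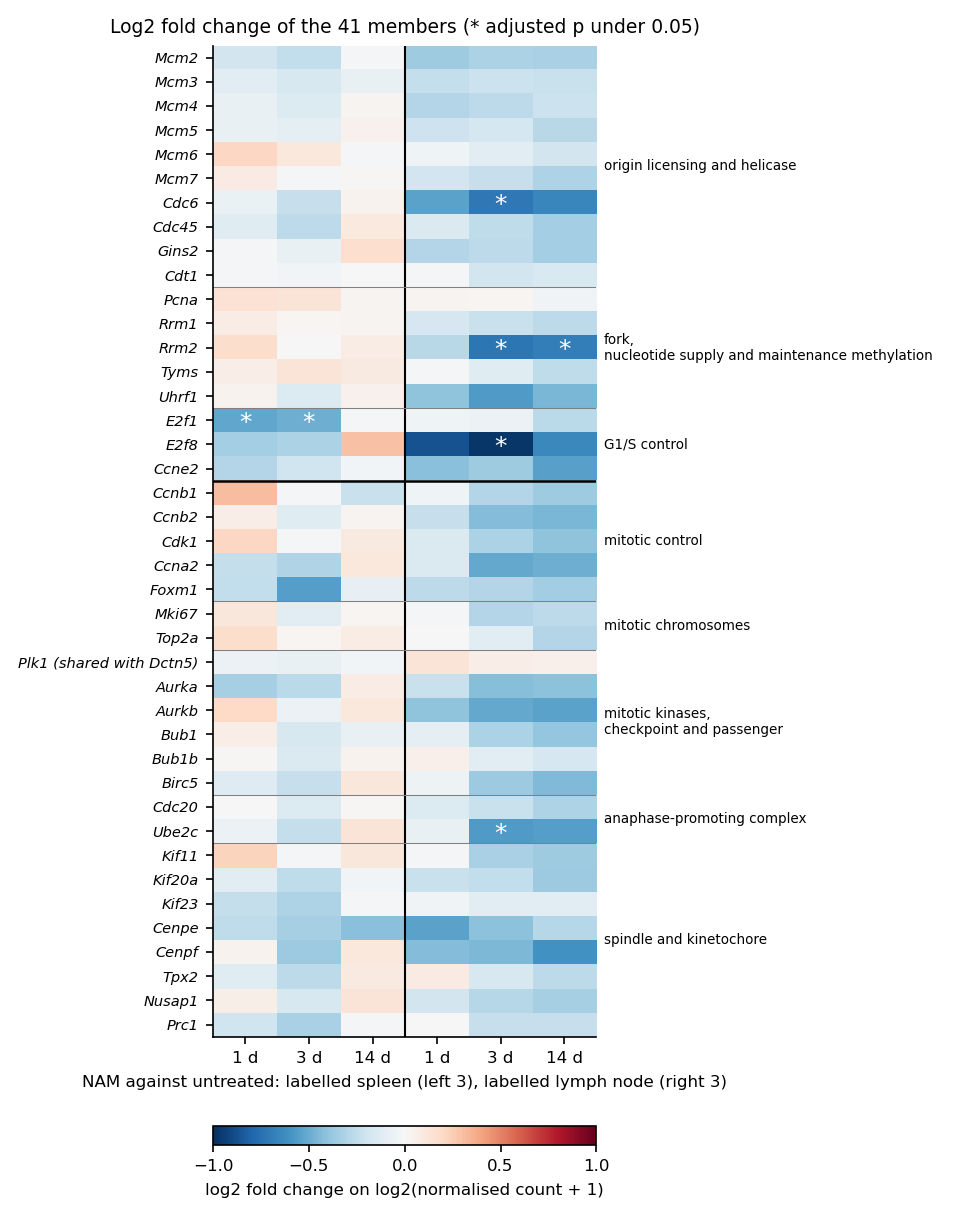
Log2 fold change against the untreated group (colour; blue lower and red higher) for the 41 members (rows, grouped by role) after 1, 3 and 14 days of NAM under each label (columns), with an asterisk where the limma adjusted p was under 0.05. Asterisks mark E2f1 in the 1 and 3 day columns of the spleen label, and E2f8, Rrm2, Cdc6 and Ube2c in the 3 day column and Rrm2 in the 14 day column of the lymph node label.

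Between 3 and 14 days under the lymph node label no member passed the test (0.0110% of all genes did), and 0 of 41 had an unadjusted p under 0.05, against 5.84% of all genes. The median difference was −0.04 on the log2 scale, but 0.02 without 14 day library 1 and −0.12 without 14 day library 2, where 5 members had an unadjusted p under 0.05. The fold was below 1 for 30 members, 13 and 39 in these same fits. E2f1 came nearest, with a log2 fold change of −0.21 and an adjusted p of 0.856.

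Under the lymph node label, most of the other S phase and mitosis genes had folds below 1, and the G1 genes had medians near 0. At 14 days, 2 of 42 other S phase genes were called lower and none higher, 18 had an unadjusted p under 0.05, and the median log2 fold change was −0.21. Orc1, of the origin recognition complex, gave the lowest called value, −0.95 (adjusted p = 0.0295), and the other call was Ccne1. Of 45 other mitosis genes, 1 was called lower (Cenpa, the centromeric histone, −0.38, adjusted p = 0.0453), 44 had a fold below 1, and the median was −0.36. The 21 G1 cyclins, kinases and inhibitors had 0 calls, a fold below 1 in 12 and a median of −0.04. At 3 days the same lists had 1, 1 and 0 genes called lower (Orc1 at −0.88, adjusted p = 0.0337, and Cenpa) and medians of −0.18, −0.31 and −0.02. At 1 day none was called in any of the 3 lists.

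**Figure D4:**
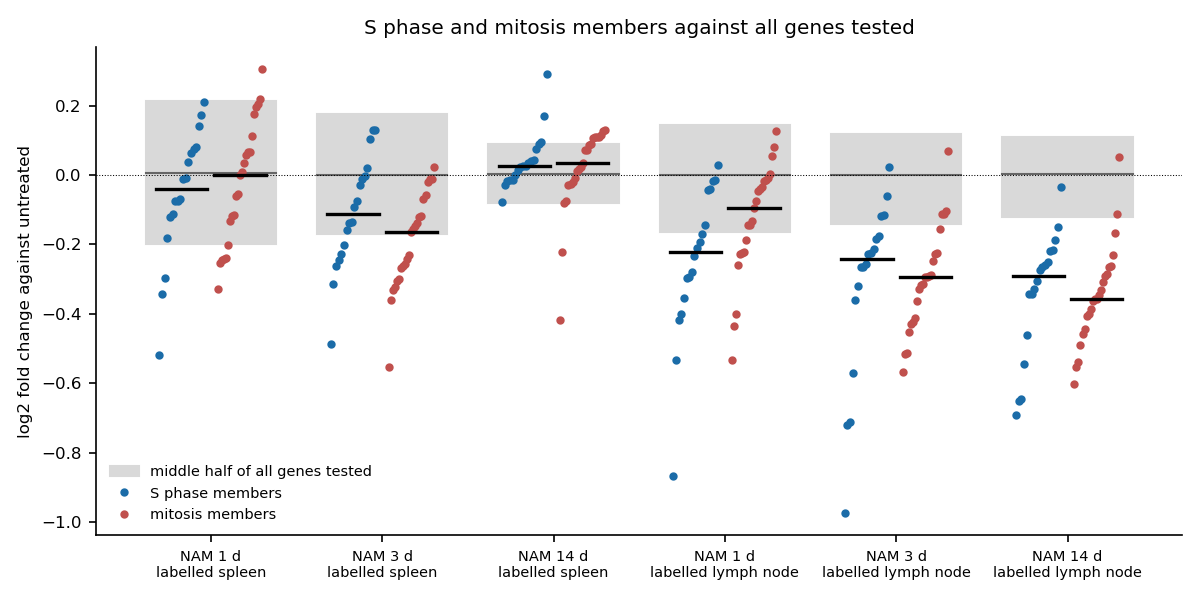
Distribution of log2 fold changes against the untreated group (y axis) for the S phase and mitosis members (points, with their medians as bars), by label and days of NAM (x axis). The grey band runs from the lower to the upper quartile of all genes tested. Under the lymph node label, 33 of 41 members at 3 days and 38 of 41 at 14 days lay below the lower quartile of all genes.

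Markers of erythroid cells, which divide as precursors in the mouse spleen, were also lower after NAM under the lymph node label. The 15 erythroid markers summed to 25460 to 35970 reads in the untreated libraries, 17800 to 23070 after 1 day, 2906 to 13300 after 3 days and 10360 to 15860 after 14 days, and none was at 0 in any group. At 3 days 14 of the 15 were called lower, with a median log2 fold change of −3.16, and at 14 days 5 of the 15, with a median of −1.91. The erythroid markers thus stood higher at 14 than at 3 days, by 0.94 in mean log2 level, while the S phase members differed by −0.02 and the mitosis members by −0.04. The 10 neutrophil precursor markers summed to 3252 to 6766 reads untreated, 5035 to 9307 at 3 days and 2428 to 5553 at 14 days, where 3 were called lower and the median was −1.10, and none was called at 3 days. The 9 germinal centre B cell markers ran from 5514 to 6116 untreated, 5473 to 8150 at 3 days and 5257 to 8535 at 14 days, with 0 called at either time. No plasma cell, T cell, B cell or adipocyte marker was called at 3 or 14 days under this label, and at 1 day the calls were 1 T cell marker (Lat, whose row also carries Mir7058) and 1 germinal centre B cell marker (Mef2b), both higher. The lists of tissue structure moved too. The mean log2 level of the 6 red pulp and splenic mesenchyme markers differed from untreated by −0.30 at 14 days, below all untreated libraries in 4 of 4, and Hmox1 among them was called lower. That of the 4 high endothelial venule markers differed by 0.68 at 1 day (2 of 2 above all untreated) and 0.38 at 3 days (4 of 4 above), with none of the 3 tested called. The part of these cells and structures in the members' values was not tested.

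Whether NAM acted differently on the members under the 2 labels was tested as the difference of the changes. No member passed at 1, 3 or 14 days, where 1.69%, 0.735% and 0.140% of all 17147 genes did. An unadjusted p under 0.05 was found for 2, 4 and 20 of the 41, against 17.1%, 13.1% and 4.85% of all genes. The count of 20 was 5 without untreated library 2 labelled lymph node, 8 without 14 day library 1 of that label, 10 without 14 day library 1 or 2 labelled spleen and 13 without untreated library 2 labelled spleen. The count of 2 ran from 1 to 6 and that of 4 from 2 to 6 when 1 library was left out. At 14 days the change under the spleen label minus that under the lymph node label had a median of 0.34, and 37 of 41 members lay above the upper quartile of all genes, which was 0.14. The lowest adjusted p was that of Aurkb at 1 day (0.196, difference 0.60), and that of Rrm2 at 3 days (0.108, difference 0.72) and 14 days (0.301, difference 0.76). A difference between the labels was therefore not established for any single member, E2f1 and E2f8 included. Among cell type markers, erythroid Sptb (2.39), Ermap (2.87), Epor (1.35) and Gata1 (1.53) were called in this contrast at 14 days. Sptb, Hemgn, Ermap and Gata1 were called at 3 days, also positive, and the row of Mef2b and Borcs8 was negative at 1 and 3 days. Their part in the members' differences was not tested.

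In libraries labelled lymph node, the mean levels of both lists were lower at 3 and 14 days than untreated. The mean log2 level of the S phase genes under the lymph node label was 10.38 ± 0.22 (SD, n = 3) in the untreated group, then 10.13 ± 0.02 (n = 2), 10.06 ± 0.11 (n = 4) and 10.04 ± 0.16 (n = 4) on days 1, 3 and 14. The mean of the mitosis genes was 9.59 ± 0.11, 9.46 ± 0.01, 9.29 ± 0.20 and 9.25 ± 0.28. Each score was lower than in all untreated libraries in 4 of 4 libraries at 3 days and in 3 of 4 at 14 days, when both differed from untreated by −0.34. The S phase difference rests in part on untreated library 2: without it the difference went from −0.25 to −0.13 at 1 day, from −0.32 to −0.20 at 3 days and from −0.34 to −0.22 at 14 days, where that of the mitosis genes was −0.29. Leaving out 1 library from these means was chosen after seeing the data. With each library's median level over members, not the mean, the S phase difference was −0.64 at 3 days and −0.57 at 14 days. The mitosis difference was then −0.32 and −0.33. This S phase median rests on the genes of middle level, mostly Rrm2 and Uhrf1. The median of the members' own log2 fold changes was instead −0.24 and −0.29 for S phase and −0.29 and −0.36 for mitosis. The mitosis mean minus the S phase mean was −0.79 ± 0.12, −0.67 ± 0.01, −0.77 ± 0.14 and −0.79 ± 0.12 in the same order of groups. Both 1 day libraries lay above all untreated ones in this difference, as did 2 of 4 at 3 days and 1 of 4 at 14 days. At 3 and at 14 days 1 of 4 lay below them.

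Under the spleen label, the S phase mean was 9.65 ± 0.09, 9.59 ± 0.13, 9.54 ± 0.09 and 9.69 ± 0.19 in the untreated, 1, 3 and 14 day groups (SD, n = 5 each). The mitosis mean was 8.65 ± 0.13, 8.62 ± 0.10, 8.46 ± 0.10 and 8.66 ± 0.29. At 3 days the mitosis mean lay below all untreated libraries in 4 of 5, by −0.19 on average, and the S phase mean in 3 of 5, by −0.11. The mitosis mean minus the S phase mean differed from its untreated value by 0.03, −0.08 and −0.03 at these times, each less than the untreated SD of 0.12. No p is given for these scores.

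In several groups, 1 library held the highest or lowest value of most members of both lists. Among the 14 day libraries labelled spleen, library 4 held the lowest value of 38 of the 41 members, against 23.1% of all genes, and libraries 1 and 2 held the highest of 22 and 18. Among the 14 day libraries labelled lymph node, library 2 held the highest value of 36 members (27.0% of all genes) and library 1 the lowest of 36 (22.0%). In the untreated group of that label, library 2 was highest for 33 members (36.5%) and library 3 lowest for 34 (34.7%). Not every library followed this. In the 3 day group labelled spleen, library 3 was lowest for 13 mitosis genes and 1 S phase gene (16.7% of all genes), and in that labelled lymph node, library 1 was lowest for 8 S phase genes and 2 mitosis genes (27.6%). The germinal centre B cell score of 14 day library 2 labelled lymph node was 9.66, against 8.48 to 8.97 in the other 3, and its depth of 39223706 reads lay between the others. Untreated library 2 of that label, also high for most members, had the lowest such score of its group, 8.31 against 8.45 and 8.91. So did spleen-labelled 14 day library 1, at 8.08. Spleen-labelled 14 day library 4 had 48338251 reads, the deepest of its group, and a germinal centre B cell score of 8.22, within the group's 8.08 to 8.97. Its adipocyte score, 13.41, was the group's highest, against 11.27 in library 1, the lowest, and 13.06 in library 2. At 1 day under that label, library 2, lowest for 23 members (29.7% of all genes), had the highest, 14.52. Library 5, highest for 29 (25.2%), had the lowest, 12.42. Untreated library 1 went the other way, lowest for 14 members (24.6%) and in adipocyte score, 10.66. The part of these cells in the spread was not tested.

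**Figure D5:**
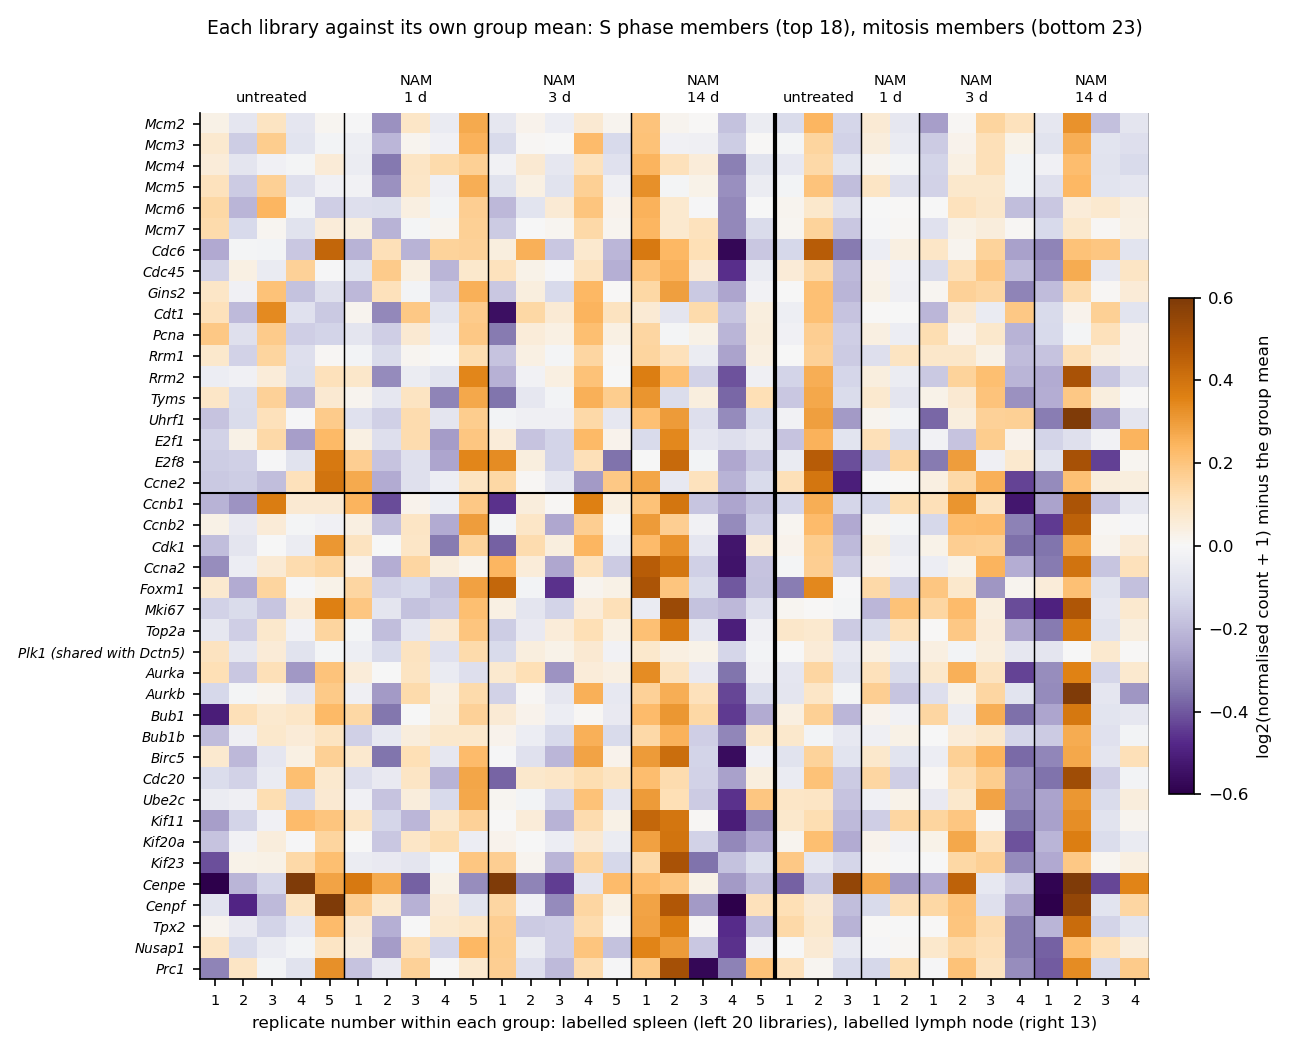
Deviation of each library from its own group mean in log2(normalised reads + 1) (colour) for the 41 members (rows, S phase above mitosis) in all 33 libraries (columns, by group). Some columns share 1 colour over most members, as in 14 day library 2 labelled lymph node, which held the highest value of its group in 36 members, and 14 day library 4 labelled spleen, which held the lowest in 38.

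The spread within groups was set beside that of all genes. The residual SD in log2 units had a median of 0.18 over the S phase genes and 0.22 over the mitosis genes under the spleen label, against 0.23 over all genes. Under the lymph node label it was 0.18 and 0.23, against 0.17 over all genes. The row named for Plk1 also carries Dctn5, so its values in libraries labelled lymph node (5790.2 to 6284 reads untreated, 5939 to 6572 at 14 days) cannot be read as Plk1 alone.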

How the data were processed

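Polyadenylated RNA of mouse lymphoid organs was sequenced in paired ends. Per the study's methods and the labels, the authors aligned reads to mm10 with STAR 2.4.0 and deposited read counts per gene divided by DESeq2 size factors, a normalised signal per gene with 33 library columns (0 columns stayed unmapped). Strand use in counting is not given in the sources used here. Values came out as whole reads after rescaling for 100.0% of entries (tolerance 0.05), which gave the depths.

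For this report, log2(value + 1) was fitted with limma 3.58.1 (R 4.3.3, intensity trend), 4 groups per label in 1 fit, for genes with a mean of at least 10 normalised reads over the label's libraries. Tests were two-sided, with Benjamini-Hochberg adjustment over all genes and a threshold of 0.05. The change was compared between labels in a fit of all 33 libraries, as a difference of changes. Fold changes are on the log2(value + 1) scale. The fit was tested on simulated data with known changes. Of 56 replicate pairs, 0 were identical.

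The members, marker lists and pathway lists were chosen with earlier results of these data known, and list counts are descriptions. Named were 12 members set by role, up to 3 members with the widest called change each way per comparison (the member nearest the threshold where none passed), and the other pathway genes with the widest called change each way. Alternatives were pseudocount 0.1, no filter, quantile normalisation, library weights, a replicate block, only the groups compared, count models on the recovered whole reads (edgeR 4.0.16, and DESeq2 1.42.0), the rule of an unadjusted p up to 0.05 and at least 1.5-fold, and leaving out each library. Exon overlaps came from the mm10 annotation and promoters from RefSeq (GRCm38.p6).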

Additional observations from a re-analysis of the deposited data

Results flagged for a closer look

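In 7 of 108 sets searched, a library lay far from the rest of its group (Dixon's test at the 95% level), where chance alone flags about 1 in 20. In the 14 day libraries labelled lymph node, library 2 stood apart for Rrm2, at 1311 reads against 787 to 872.3 in the other 3, and for Mcm5, at 4449 against 3544 to 3602, while library 1 stood apart for Mcm6, at 1623 against 1877 to 1920. In the 14 day libraries labelled spleen, library 2 stood apart for Mki67, at 768 against 462 to 512.8, and for E2f1, at 362.1 against 262.5 to 271.9. Untreated library 5 labelled spleen stood apart for E2f8, at 386 against 266.6 to 295.1, and 3 day library 3 of that label for Aurka, at 172.1 against 215.8 to 228.4.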

How the results depend on the processing

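The calls of E2f1 at 1 day and of E2f1 and E2f8 at 14 against 1 day under the spleen label held with any 1 library left out, and each other call among the members was lost in at least 1 such fit. Leaving out 1 library took the median over members across 0 under the spleen label at 1 day (−0.076 to 0.01), at 14 days (−0.014 to 0.11) and at 14 against 1 day (−0.0064 to 0.12), and under the lymph node label at 14 against 3 days (−0.12 to 0.025). Under the spleen label the 1 call at 1 day became 2 with quantile normalisation or library weights and 0 under the rule of an unadjusted p with a 1.5-fold change (1 to 2 leaving out 1 library). The 1 call at 3 days became 11 with library weights, 3 with DESeq2, 0 with only the groups compared, 0 under the unadjusted rule and 0 to 2 leaving out 1 library. At 14 days it stayed at 0 (0 to 0), and the 3 calls of 14 days against 1 day became 1 under the unadjusted rule and 2 to 5 leaving out 1 library, 5 of them without 14 day library 4. Under the lymph node label the 0 calls at 1 day became 1 with DESeq2 or the unadjusted rule (0 to 0 leaving out 1 library), and the 4 at 3 days became 1 with no filter and 0 to 2 leaving out 1 library. The 1 call at 14 days became 0 with pseudocount 0.1 or no filter, 2 with quantile normalisation, 4 with library weights, DESeq2 or the unadjusted rule, and 0 to 5 leaving out 1 library. Of 14 against 3 days there were 0 in each fit that left out 1 library. Between labels, the 0 calls became 1, 2 and 7 at 1, 3 and 14 days under the unadjusted rule and 1 at 3 days with library weights (0 to 1 leaving out 1 library). With edgeR the count of calls stayed within 1.5 times of each, but under the lymph node label it called Mcm7 and not Rrm2 at 14 days, and at 3 days 3 members (Cdc6, E2f8 and Rrm2). The labels do not say whether replicate numbers pair the libraries. Same-number correlations ran from −0.496 to 0.468 under the spleen label, where 13 of 30 pairs exceeded 0.1. Under the lymph node label they ran from −0.107 to 0.0789. With a replicate block the calls were 2 at 3 days under the spleen label, and 1 at 1 day and 2 at 3 days under the lymph node label. E2f1 at 1 day kept its call in 18 of 19 alternatives (adjusted p 0.00129 to 0.0233) and at 3 days in 11 of 19 (0.0014 to 0.0881), E2f8 of 14 against 1 day in 19 of 19, and under the lymph node label at 3 days E2f8 in 11 of 16, Rrm2 in 11, Ube2c in 6 and Cdc6 in 5, and Rrm2 at 14 days in 5. The log2 fold change of Pcna at 14 days under the lymph node label ran from −0.11 to 0.052 leaving out 1 library, and was above 0 without untreated library 2 or 14 day library 1. With each library's median level over members, the S phase score differences under the lymph node label were −0.64 at 3 days and −0.57 at 14 days. These values rest on the genes of middle level, mostly Rrm2 and Uhrf1. The causes of these moves were not tested.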
